A study of Mus musculus with 12 samples.

Results

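Complement is the set of blood and tissue proteins that tag cells, microbes and, in the brain, synapses for removal. The genes described here are 9 of its components, regulators and receptors, chosen by gene name: C1qa, C1qb, C1qc, C4b, C3, Serping1, C3ar1, C5ar1 and Itgam. All 9 were found among the 27978 genes of the deposited table. The table gives levels in mouse hippocampal tissue after fecal microbiota transplantation (FMT), in 12 RNA-seq libraries of total RNA, 4 each from the groups FMT-SP, FMT-DSS and FMT-CON. FMT-SP is called FMT-DSS+SP in the series description, and the series title names SP as the neuropeptide substance P. All 3 groups received a transplant, and no mice without one are among the samples. What CON and DSS stand for, the strain, sex and age of the mice, the donors, and the dose, time and recipient of substance P, are stated nowhere in the labels. Since the labels do not tie libraries to animals, p-values measure only the spread between these libraries, which may be technical.

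In the classical pathway, C1q binds a target and its associated proteases cleave C4, which leads to the cleavage of C3 by another enzyme. Fragments of C4 and C3 stay on the target. The released small fragments of C3 and C5 act through the receptors C3ar1 and C5ar1, and phagocytes take up tagged material through complement receptor 3, of which Itgam is the alpha chain. In the adult brain microglia are the main source of C1q and carry these receptors, while astrocytes can make C3 and C4. Tagging of synapses by C1q and C3 and their removal by microglia is the best known role of the pathway in the hippocampus.

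Levels are in FPKM, fragments scaled for the length of the transcript and for the total of the library, which allows levels of different genes to be compared. The read totals estimated from the values run from 31.5 to 37.1 M fragments per library (M, 1e+06 fragments). Changes are differences of mean log2(FPKM + 1) with the standard error (SE) of a limma model across all genes. That model tested genes averaging at least 1 FPKM, which 12559 genes passed and 6 of these 9. C3, C3ar1 and C5ar1 lay below that minimum and were taken from the same model with a minimum of 0.1 FPKM, which 17321 genes passed. Because 1 is added to each value, changes of such low genes are understated on this scale.

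Libraries FMT-DSS 2 and FMT-DSS 4 stood apart from the others in genes of immune cells. Cx3cr1, the fractalkine receptor that marks microglia, had 1.12 FPKM in FMT-DSS 2, 2.20 FPKM in FMT-DSS 4 and 7.37 to 13.9 FPKM in the other 10 libraries. The summed level of 13 microglia markers was 140 to 170 FPKM in FMT-SP, 82.7 to 158 FPKM in FMT-DSS and 138 to 169 FPKM in FMT-CON. It was 115 FPKM in FMT-DSS 2 and 82.7 FPKM in FMT-DSS 4, and 13 of 13 markers had a lower mean in FMT-DSS than in FMT-CON. The summed level of 8 neutrophil markers was 189 FPKM in FMT-DSS 2, 27.1 FPKM in FMT-DSS 4 and 2.11 to 11.9 FPKM in the other 10. In FMT-DSS 2 S100a9 held 101 FPKM and S100a8 58.6 FPKM of this sum. There 6 of the 8 had their highest value, and 1, Csf3r, its lowest (1.26 FPKM). The 9 reactive astrocyte markers summed to 502 FPKM in FMT-DSS 2 and to 98.9 to 150 FPKM in the other 11 libraries. Lcn2 alone held 285 FPKM of the sum in FMT-DSS 2, where 8 of the 9 had their highest value. The 7 border macrophage markers, of macrophages at the edges of the brain, summed to 6.92 FPKM in FMT-DSS 2 and to 1.17 to 3.91 FPKM in the other 11 libraries. Of the 7, 5 had their highest value in FMT-DSS 2. A higher mean in FMT-DSS than in FMT-CON was held by 5 of them and a lower one by 2. In the 3 libraries numbered 4, the 13 mitochondrially encoded genes held 24.0% to 29.0% of all FPKM, against 15.9% to 20.3% in the other 9. Markers of CA1 neurons summed to 158 to 237 FPKM in FMT-SP, 203 to 283 FPKM in FMT-DSS and 115 to 244 FPKM in FMT-CON, and 6 of 6 had a higher mean in FMT-DSS than in FMT-CON. Markers of dentate granule cells, the other main neurons of the hippocampus, summed to 56.8 to 74.2 FPKM in FMT-SP, 41.7 to 62.2 FPKM in FMT-DSS and 61.0 to 78.5 FPKM in FMT-CON, and 6 of 6 had a lower mean in FMT-DSS than in FMT-CON. Markers of the striatum, a neighbouring brain region, summed to 360 FPKM in FMT-DSS 3 and to 52.1 to 175 FPKM in the other 11 libraries, and 8 of 8 had a higher mean in FMT-DSS than in FMT-CON. Erythrocyte markers summed to 124 to 1337 FPKM in FMT-SP, 218 to 717 FPKM in FMT-DSS (588 FPKM in FMT-DSS 2 and 717 FPKM in FMT-DSS 4) and 138 to 389 FPKM in FMT-CON, and 5 of 5 had a higher mean in FMT-DSS than in FMT-CON. Choroid plexus markers ran from 18.3 to 3836 FPKM in FMT-SP, from 1307 to 2928 FPKM in FMT-DSS and from 30.8 to 3609 FPKM in FMT-CON, and the part of these tissues and cells in the results was not tested. Of the neutrophil, reactive astrocyte and choroid plexus markers, 7 of 8, 8 of 9 and 5 of 8 had a higher mean in FMT-DSS than in FMT-CON. Over all tested genes, 40.3% had a positive change in FMT-DSS against FMT-CON. That share is by mean log2(FPKM + 1) at a minimum of 1 FPKM. The marker counts compare mean FPKM without a minimum, so the 2 measures are not alike. None of the markers in these lists was at 0 in every library. In bulk tissue, fewer cells of a type and less RNA per cell cannot be told apart.

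**Figure D1:**
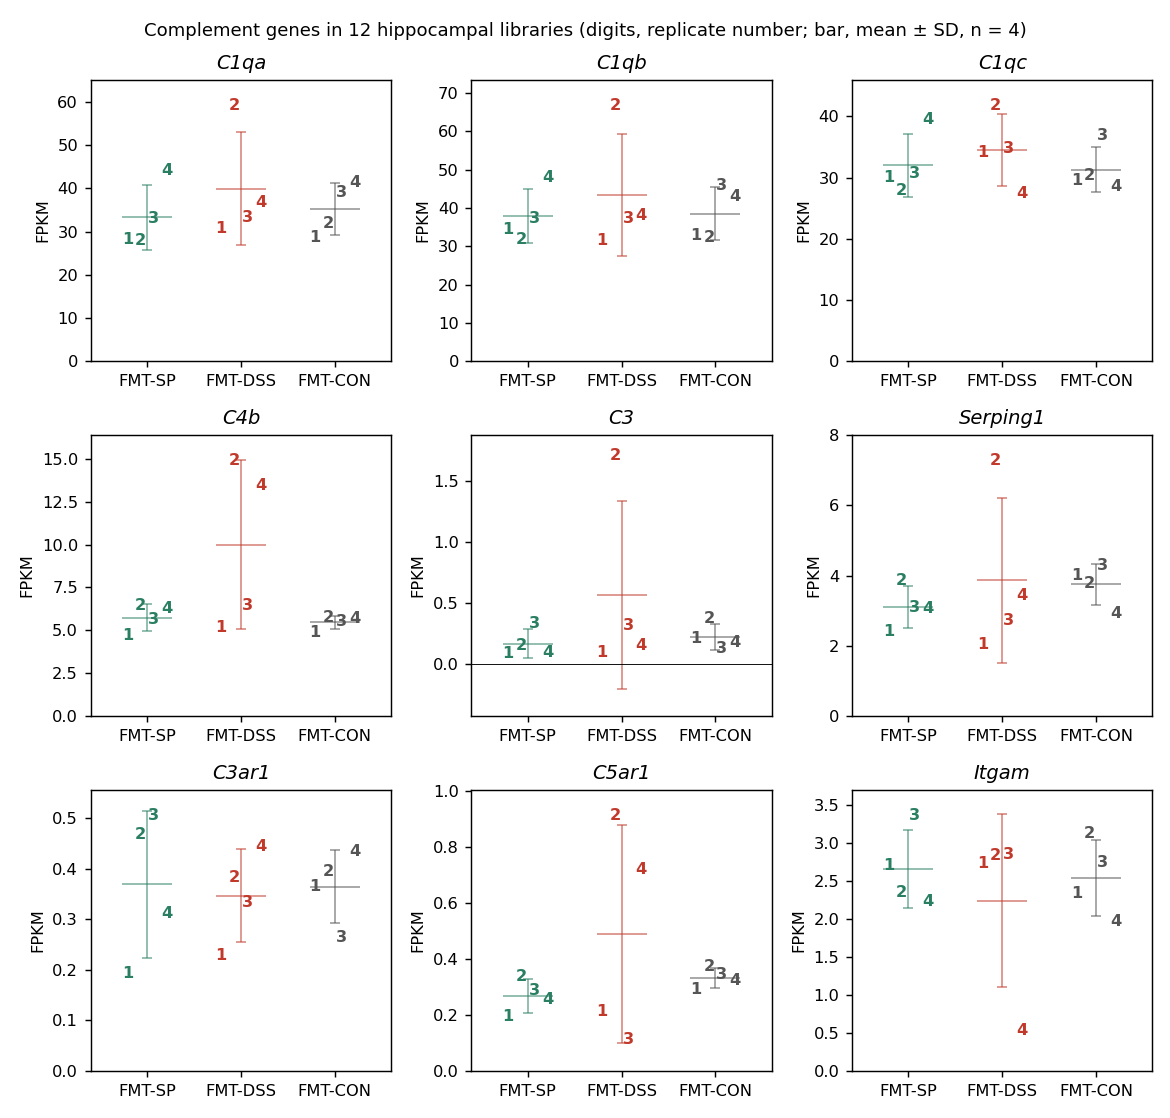
Level of each complement gene in FPKM (y axis, linear) in the 4 libraries of FMT-SP, FMT-DSS and FMT-CON, with digits for the replicate number and bars for the mean ± SD (n = 4). FMT-DSS 2 holds the highest value of C1qa, C1qb, C1qc, C4b, C3, Serping1 and C5ar1, and FMT-DSS 4 the lowest of Itgam.

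Across the 12 libraries the C1q genes were by far the most abundant of the 9. C1qb averaged 39.9 FPKM, C1qa 36.2 FPKM and C1qc 32.6 FPKM, above 94.7%, 94.1% and 93.5% of all genes in the table. C4b followed at 7.06 FPKM, then Serping1 at 3.57 FPKM and Itgam at 2.48 FPKM. C5ar1, C3ar1 and C3 averaged 0.363, 0.360 and 0.317 FPKM, below the median gene of the table, since each exceeded 46.7% to 47.6% of genes. The ranges of neighbours in this order overlapped within the C1q genes, between Serping1 and Itgam and among the 3 lowest genes, and the low Itgam value of FMT-DSS 4 lay inside the ranges of C5ar1 and C3. The range of C4b, from 4.67 FPKM upward, also overlapped that of Serping1, which reached 7.29 FPKM in FMT-DSS 2. FMT-DSS 2 held the highest value of 7 of the 9 genes (77.8%), where 11.5% of all genes averaging at least 0.1 FPKM and 6 of 28 other complement genes (21.4%) had their highest value in that library. At a minimum of 1 FPKM it was 5 of 6 genes, beside 11.9% of all genes and 2 of 15 other complement genes (13.3%).

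C1qa, C1qb and C1qc encode the A, B and C chains that assemble into C1q, the recognition molecule of the classical pathway. In RefSeq's GRCm38.p6 annotation the genes lie next to each other on chromosome 4 in the order C1qb, C1qc, C1qa. The promoter sequences of C1qb and C1qc are shown because these neighbouring genes did not keep to a fixed ratio in these libraries. Each is taken from RefSeq, 250 bases before to 50 bases after the gene's start on the minus strand, 5′ to 3′. Capitals mark matches on either strand to GAGGAA (core of the site of PU.1, a transcription factor of myeloid cells), TTNNGNAA (C/EBP), GGGA and CC with 4 bases between them (NF-kB) or TTCNNNGAA (STAT).
C1qb (GRCm38.p6, chr4:136886151-136886450, minus strand): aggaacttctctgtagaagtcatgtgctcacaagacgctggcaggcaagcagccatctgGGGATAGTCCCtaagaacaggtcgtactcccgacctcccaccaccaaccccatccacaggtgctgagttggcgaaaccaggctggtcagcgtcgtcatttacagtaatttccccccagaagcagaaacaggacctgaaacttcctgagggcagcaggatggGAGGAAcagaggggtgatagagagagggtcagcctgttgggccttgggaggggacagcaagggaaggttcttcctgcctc
C1qc (GRCm38.p6, chr4:136892865-136893164, minus strand): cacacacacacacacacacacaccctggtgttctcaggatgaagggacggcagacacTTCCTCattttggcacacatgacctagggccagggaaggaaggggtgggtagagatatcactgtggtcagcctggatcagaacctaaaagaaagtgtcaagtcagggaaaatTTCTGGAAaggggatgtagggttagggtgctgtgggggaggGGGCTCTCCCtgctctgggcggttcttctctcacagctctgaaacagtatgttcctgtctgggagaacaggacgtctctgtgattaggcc
The GAGGAA match begins at base -30 in C1qb and at base -193 in C1qc, counted from the start. The NF-kB motif matched at -191 and, overlapping it, at -190 in C1qb, and at -40 in C1qc, where TTNNGNAA matched at -81. Of 32851 mouse promoters of this length, 28.3% hold GAGGAA, 20.7% the NF-kB motif, 40.7% TTNNGNAA and 8.3% TTCNNNGAA, so these matches are common and are given as a description only.

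C1qa was at 28.2, 27.9, 33.0 and 44.1 FPKM in FMT-SP 1 to 4, at 30.7, 59.2, 33.2 and 36.7 FPKM in FMT-DSS 1 to 4 and at 28.7, 31.8, 38.9 and 41.4 FPKM in FMT-CON 1 to 4. The 3 groups overlapped, and the highest value was that of FMT-DSS 2. C1qb was at 34.5, 31.7, 37.2 and 48.0 FPKM in FMT-SP, at 31.4, 66.8, 37.1 and 38.1 FPKM in FMT-DSS and at 32.8, 32.4, 45.7 and 42.9 FPKM in FMT-CON. It followed C1qa from library to library, with FMT-DSS 2 again the highest. C1qc was at 29.9, 27.8, 30.6 and 39.6 FPKM in FMT-SP, at 34.2, 41.8, 34.7 and 27.4 FPKM in FMT-DSS and at 29.6, 30.3, 36.8 and 28.5 FPKM in FMT-CON. C1qc spread least of the 3, and FMT-DSS 4 had its lowest value.

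The ratio between C1qb and C1qa stayed between 1.02 and 1.22 in all 12 libraries. The ratio of C1qc to C1qa did not: it was 0.706 in FMT-DSS 2, 0.747 in FMT-DSS 4, 0.689 in FMT-CON 4 and 0.896 in FMT-SP 4, and 0.928 to 1.11 in the other 8 libraries. C1qc was therefore lower relative to C1qa in FMT-DSS 2 and in the 3 libraries numbered 4 than in any of the other 8. Libraries numbered 4 are those with the high mitochondrial share, and FMT-DSS 2, at 17.5%, was not among them. The part of library composition in this ratio was not tested.

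**Figure D2:**
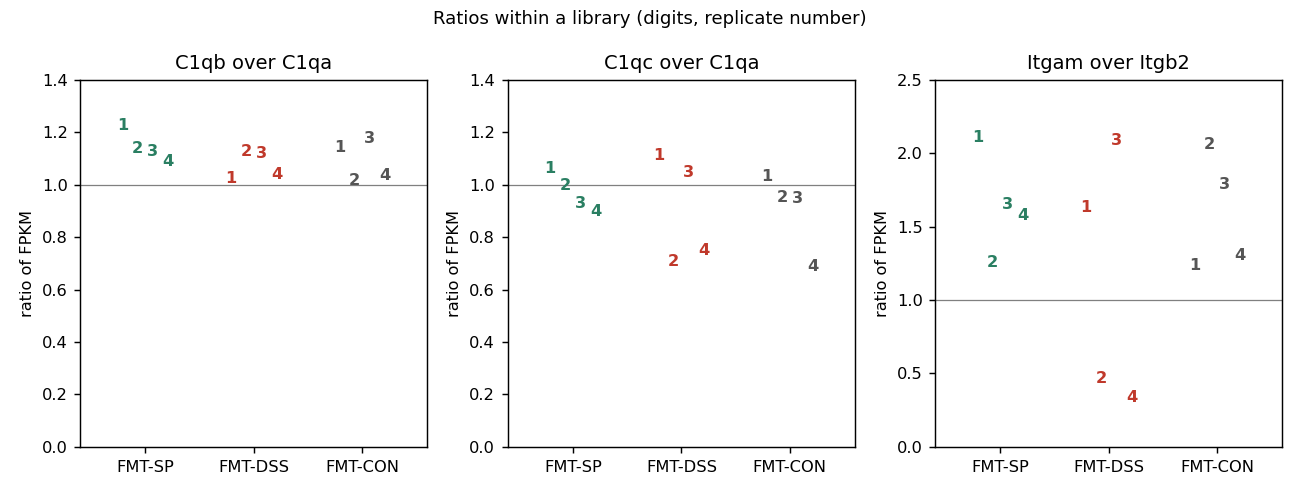
Ratio of FPKM (y axis, linear, from 0) between C1qb and C1qa, C1qc and C1qa, and Itgam and Itgb2 in each library of FMT-SP, FMT-DSS and FMT-CON, with digits for the replicate number. C1qb over C1qa lies between 1.02 and 1.22 throughout, C1qc over C1qa is lowest in FMT-CON 4, FMT-DSS 2 and FMT-DSS 4, and Itgam over Itgb2 is below 1 in FMT-DSS 2 and FMT-DSS 4 alone.

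Set against Csf1r, a receptor that microglia need to survive, C1qa was highest in the same libraries. C1qa over Csf1r was 4.01 in FMT-DSS 4, 3.11 in FMT-DSS 2, 3.07 in FMT-CON 4 and 2.59 in FMT-SP 4, and 1.45 to 2.29 in the other 8. In FMT-DSS 4 Csf1r itself was at 9.15 FPKM, its lowest value, while C1qa at 36.7 FPKM lay inside the range of FMT-CON. The low Cx3cr1 of FMT-DSS 2 and FMT-DSS 4 thus had no counterpart in C1qa, whose values there were the highest and the fifth highest of the 12.

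The tested genes whose pattern was most like C1qa over the 12 libraries, by Pearson's r of log2(FPKM + 1), were C1qb (0.97), Fcer1g (0.95), ND3 (0.91), Serpina3n (0.90) and Maged1 (0.90). Fcer1g encodes an adaptor of antibody receptors in microglia and other myeloid cells, ND3 is mitochondrially encoded, and Serpina3n is a protease inhibitor of reactive astrocytes. ND3 was at 228 FPKM in FMT-DSS 2, which had no high mitochondrial share, and at 27.3 to 54.9 FPKM in the other 11 libraries. Over the 11 libraries without FMT-DSS 2 the values of r were 0.92, 0.89, 0.86, 0.78 and 0.76. The libraries differed in composition as described above, and no test is attached to these values.

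C4b encodes complement C4, which activated C1 cleaves to begin tagging of a target. It was at 4.67, 6.43, 5.60 and 6.25 FPKM in FMT-SP 1 to 4, at 5.15, 14.9, 6.42 and 13.5 FPKM in FMT-DSS 1 to 4 and at 4.88, 5.75, 5.50 and 5.70 FPKM in FMT-CON 1 to 4. FMT-DSS 2 and FMT-DSS 4 lay far above the other 10 libraries, which spanned 4.67 to 6.43 FPKM, and FMT-DSS 1 and FMT-DSS 3 lay among those 10, so the groups overlapped. C4a, a near-identical neighbour of C4b in mouse, is not analysed here, and reads that fit both genes make the C4b values uncertain.

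C3 is the central component on which all pathways of complement meet, and in the brain it is made by reactive astrocytes and by infiltrating and resident phagocytes. It was at 0.0849, 0.150, 0.334 and 0.0969 FPKM in FMT-SP, at 0.0892, 1.71, 0.311 and 0.150 FPKM in FMT-DSS and at 0.206, 0.367, 0.128 and 0.176 FPKM in FMT-CON. FMT-DSS 2 stood alone, and FMT-DSS 4, which shared the high C4b, had a C3 value inside the range of the other libraries. These levels rest on an estimated 16 to 325 fragments per library. The C3 promoter is shown because C3 had the widest range of the 9 genes in fold, with capitals as above.
C3 (GRCm38.p6, chr17:57228087-57228386, minus strand): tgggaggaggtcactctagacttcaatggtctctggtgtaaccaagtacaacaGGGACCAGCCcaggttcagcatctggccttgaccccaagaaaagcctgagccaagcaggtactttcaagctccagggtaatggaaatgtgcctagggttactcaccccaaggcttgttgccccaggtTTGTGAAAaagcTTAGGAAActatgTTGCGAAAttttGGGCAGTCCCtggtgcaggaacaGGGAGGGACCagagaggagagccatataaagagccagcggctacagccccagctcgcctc
TTNNGNAA matched at bases -70, -58 and -45 and the NF-kB motif at -197, -33 and -10, and GAGGAA and TTCNNNGAA had no match in this window. The promoters of C3ar1, C5ar1 and Itgam were searched as well. C3ar1 had no match, C5ar1 matched TTNNGNAA at -157, and Itgam matched GAGGAA at -84, -15 and +33 and TTNNGNAA at -193 and +33, the matches at +33 overlapping.

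The tested genes most like C3 over the 12 libraries were Saa3 (r of 0.95), Chil3 (0.95), Itgb2 (0.93), Ngp (0.93) and Il4ra (0.93). Saa3 is an acute-phase protein of inflamed tissue, and Ngp is a granule protein of neutrophil precursors. Over the 11 libraries without FMT-DSS 2, r was 0.20, 0.11, 0.27, 0.23 and 0.39, so the likeness rests on that library. Saa3 was at 19.1 FPKM in FMT-DSS 2 and at 0 to 0.257 FPKM in the other 11, and Ngp was at 14.7 FPKM in FMT-DSS 2 and at 0 to 0.984 FPKM in the others. S100a8, a neutrophil alarmin, had 58.6 FPKM in FMT-DSS 2, 8.42 FPKM in FMT-DSS 4 and 0 to 2.49 FPKM in the other 10 libraries. The part of such cells in the C3 and C4b values was not tested.

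Serping1 encodes C1 inhibitor, the plasma protein that shuts off the proteases bound to C1q. It was at 2.40, 3.85, 3.09 and 3.05 FPKM in FMT-SP, at 2.05, 7.29, 2.71 and 3.43 FPKM in FMT-DSS and at 4.002, 3.76, 4.30 and 2.93 FPKM in FMT-CON. The highest and the lowest of its 12 values were both in FMT-DSS, in libraries 2 and 1.

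C3ar1, the receptor of the C3 fragment C3a, was at 0.193, 0.467, 0.506 and 0.311 FPKM in FMT-SP, at 0.229, 0.383, 0.333 and 0.444 FPKM in FMT-DSS and at 0.365, 0.394, 0.264 and 0.434 FPKM in FMT-CON. All 3 groups covered much the same range, and FMT-DSS 2 was not raised. C5ar1, the receptor of the C5 fragment C5a, was at 0.193, 0.338, 0.286 and 0.254 FPKM in FMT-SP, at 0.213, 0.914, 0.111 and 0.721 FPKM in FMT-DSS and at 0.289, 0.372, 0.345 and 0.324 FPKM in FMT-CON. FMT-DSS 2 and FMT-DSS 4 lay above all 8 libraries of the other groups, and FMT-DSS 1 and FMT-DSS 3 lay below all 4 FMT-CON libraries. C5ar1 rests on an estimated 9 to 86 fragments and C3ar1 on 30 to 80, so the lowest values carry a large counting error.

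Itgam encodes CD11b, which pairs with the product of Itgb2 to form complement receptor 3 on microglia and other myeloid cells. It was at 2.70, 2.34, 3.37 and 2.23 FPKM in FMT-SP, at 2.73, 2.84, 2.85 and 0.532 FPKM in FMT-DSS and at 2.33, 3.12, 2.74 and 1.97 FPKM in FMT-CON. FMT-DSS 4 was the single low library, and the other 11 lay between 1.97 and 3.37 FPKM. Itgb2, which serves other integrins of leukocytes as well, was at 6.06 FPKM in FMT-DSS 2 and between 1.28 and 2.04 FPKM in the other 11. The ratio of Itgam to Itgb2 was 0.468 in FMT-DSS 2 and 0.337 in FMT-DSS 4, against 1.23 to 2.11 in the other 10. The ratio fell below 1 through high Itgb2 in FMT-DSS 2 and through low Itgam in FMT-DSS 4, where Itgb2 was at 1.58 FPKM. Itgam over Csf1r was 0.0581 in FMT-DSS 4 and 0.127 to 0.166 in the other 11 libraries, FMT-DSS 2 included.

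**Figure D3:**
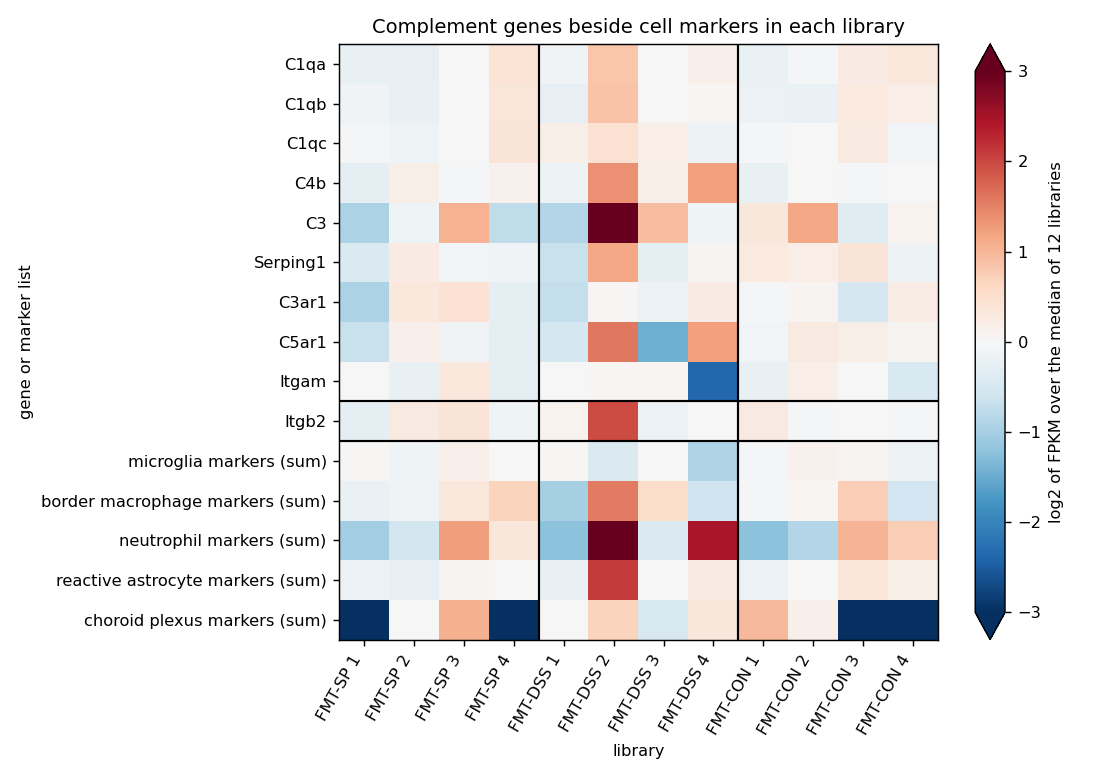
Log2 of the FPKM over its median of the 12 libraries (colour, clipped at 3 in either direction), for the 9 complement genes, for Itgb2, and for the summed FPKM of 5 marker lists (rows), in each library (columns). In FMT-DSS 2 the complement genes C4b, C3, Serping1 and C5ar1 are high beside the neutrophil, border macrophage and reactive astrocyte markers, and in FMT-DSS 4 Itgam is low beside the microglia markers. The microglia markers are also below their median in FMT-DSS 2 (-0.42), where Itgam is not (0.062).

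FMT-DSS against FMT-CON asks how hippocampal levels differed between mice given FMT-DSS and FMT-CON transplants. C4b had the highest change of the 9 genes, at 9.99 ± 4.92 FPKM in FMT-DSS and 5.46 ± 0.397 FPKM in FMT-CON (SD, n = 4 each), a log2 change of 0.65 ± 0.26 (SE) with a 95% interval of 0.091 to 1.21. It did not pass limma's test over all genes (adjusted p of 0.966), and its exact permutation p was 0.114. At an unadjusted p of 0.0261 it was the only one of the 6 genes tested with an unadjusted p under 0.05, where 4.06% of all tested genes had one (1.25% with a positive and 2.81% with a negative change). C3, C3ar1 and C5ar1 had none, where 4.38% of the genes averaging at least 0.1 FPKM had one. The change of C4b was 0.43 without FMT-DSS 2, 0.48 without FMT-DSS 4, 0.33 with array weights, which count outlying libraries less, and 0.068 without both libraries. Without both, the C4b values of FMT-DSS 1 and FMT-DSS 3 were 5.15 and 6.42 FPKM, beside 4.88 to 5.75 FPKM in FMT-CON.

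None of the other complement genes passed in that comparison. C1qa had a log2 change of 0.14 ± 0.21 (95% interval -0.30 to 0.59), C1qb of 0.12 ± 0.21 (-0.33 to 0.58) and C1qc of 0.13 ± 0.14 (-0.17 to 0.43). The C1qa and C1qb changes turned to -0.058 and -0.099 without FMT-DSS 2, and that of C1qc was then 0.034. Without FMT-DSS 2 and FMT-DSS 4 together, the change was -0.12 for C1qa, -0.15 for C1qb and 0.14 for C1qc. Serping1 was at 3.87 ± 2.35 FPKM in FMT-DSS and 3.75 ± 0.588 FPKM in FMT-CON, a change of -0.065 ± 0.25, which was -0.36 without FMT-DSS 2 and -0.49 ± 0.17 without both (adjusted p of 0.9997 by limma). C3 was at 0.564 ± 0.767 FPKM in FMT-DSS and 0.219 ± 0.104 FPKM in FMT-CON, a change of 0.26 ± 0.23 that turned to -0.044 without FMT-DSS 2 and to -0.025 without both. With a pseudocount of 0.1 the C3 change was 0.49 ± 0.58. C5ar1 had a change of 0.12 ± 0.14, which was -0.20 without FMT-DSS 2 and FMT-DSS 4, and C3ar1 one of -0.019 ± 0.086, which was -0.091 without both. Itgam was at 2.24 ± 1.14 FPKM in FMT-DSS and 2.54 ± 0.500 FPKM in FMT-CON, a change of -0.21 ± 0.26 that turned to 0.11 without FMT-DSS 4. Over all genes, limma called 0 of 12559 (0%) with an adjusted p under 0.05 and 510 with an unadjusted p under 0.05. The groups overlapped in all 9 complement genes, and did not overlap in 1.75% of genes tested (1.9% at the minimum of 0.1 FPKM). Of the 6 genes tested, 4 had a positive change and the median was 0.13, where 40.3% of all tested genes had a positive change and the median was -0.035. Without FMT-DSS 2 and FMT-DSS 4, 3 of the 6 had a positive change with a median of -0.028, where 52.2% of all tested genes had a positive change with a median of 0.0072. In that fit, which leaves only FMT-DSS 1 and FMT-DSS 3 in the group, 1 of the 6 had an unadjusted p under 0.05. Of all 12559 tested genes, 162 had one there, and none passed after adjustment.

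**Figure D4:**
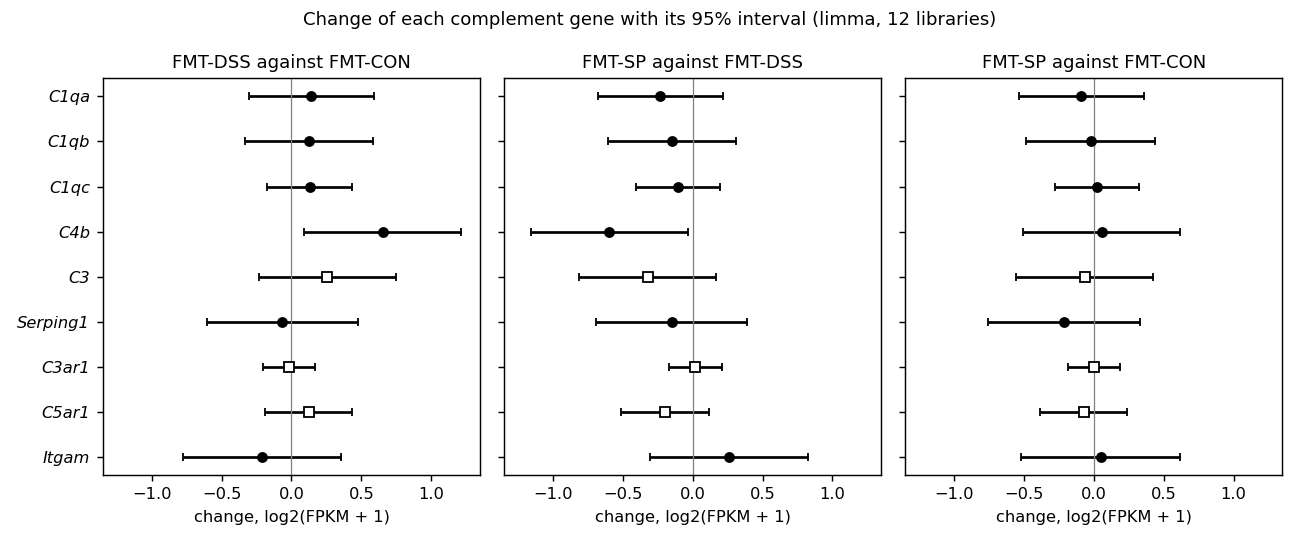
Change in mean log2(FPKM + 1) of each complement gene (x axis) with its 95% interval from limma in the 3 comparisons (panels), with filled circles for genes tested at a minimum mean of 1 FPKM and open squares for those at 0.1 FPKM. The interval of C4b excludes 0 for FMT-DSS against FMT-CON (0.091 to 1.21) and, with the opposite sign, for FMT-SP against FMT-DSS (-1.16 to -0.036) before adjustment, and all other intervals include 0.

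FMT-SP against FMT-DSS asks how levels differed in the group with substance P. The 4 FMT-DSS libraries enter this comparison too, so genes high or low in those libraries tend to have changes of opposite sign in the 2 comparisons. C4b was at 5.74 ± 0.796 FPKM in FMT-SP and 9.99 ± 4.92 FPKM in FMT-DSS (SD, n = 4 each), a log2 change of -0.60 ± 0.26 (95% interval -1.16 to -0.036). It did not pass limma's test over all genes (adjusted p of 0.999, unadjusted p of 0.0389), and its exact permutation p was 0.229. Without FMT-DSS 2 the change was -0.38, without FMT-DSS 4 it was -0.42, and without both it was -0.012. At an unadjusted p under 0.05, C4b was 1 of the 6 genes tested, where 2.5% of all tested genes had one (1.27% with a positive and 1.23% with a negative change). C3, C3ar1 and C5ar1 again had none, where 3.09% of the genes averaging at least 0.1 FPKM had one. With the replicate number as a block the C4b change was -0.60 ± 0.20 (adjusted p of 0.672 by limma).

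C1qa was at 33.3 ± 7.60 FPKM in FMT-SP and 40.0 ± 13.1 FPKM in FMT-DSS, a change of -0.23 ± 0.21 that was -0.031 without FMT-DSS 2. C1qb had a change of -0.15 ± 0.21 and C1qc one of -0.10 ± 0.14. With both FMT-DSS 2 and FMT-DSS 4 left out, the change was 0.034 for C1qa, 0.13 for C1qb and -0.12 for C1qc. C3 was at 0.166 ± 0.115 FPKM in FMT-SP and 0.564 ± 0.767 FPKM in FMT-DSS, a change of -0.32 ± 0.23 that was -0.022 without FMT-DSS 2, -0.040 without both, and -0.79 ± 0.58 with a pseudocount of 0.1. Serping1 had a change of -0.15 ± 0.25, which turned to 0.14 without FMT-DSS 2 and to 0.27 without both. C5ar1 had a change of -0.20 ± 0.14, which turned to 0.13 without both, and C3ar1 one of 0.020 ± 0.086, which was then 0.091. Itgam had a change of 0.26 ± 0.26, which turned to -0.066 without FMT-DSS 4. None of these 8 passed, with adjusted p of 0.999 each, and all groups overlapped, as in all but 1.27% of genes tested (1.59% at the minimum of 0.1 FPKM). Limma called 0 of 12559 genes (0%), with 314 at an unadjusted p under 0.05, or 885 with the block. Of the 6 genes tested, 1 had a positive change and the median was -0.15, where 58.9% of all tested genes had a positive change and the median was 0.029. Without FMT-DSS 2 and FMT-DSS 4, 3 of the 6 had a positive change with a median of 0.011, where 45.2% of all tested genes had one with a median of -0.011.

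**Figure D5:**
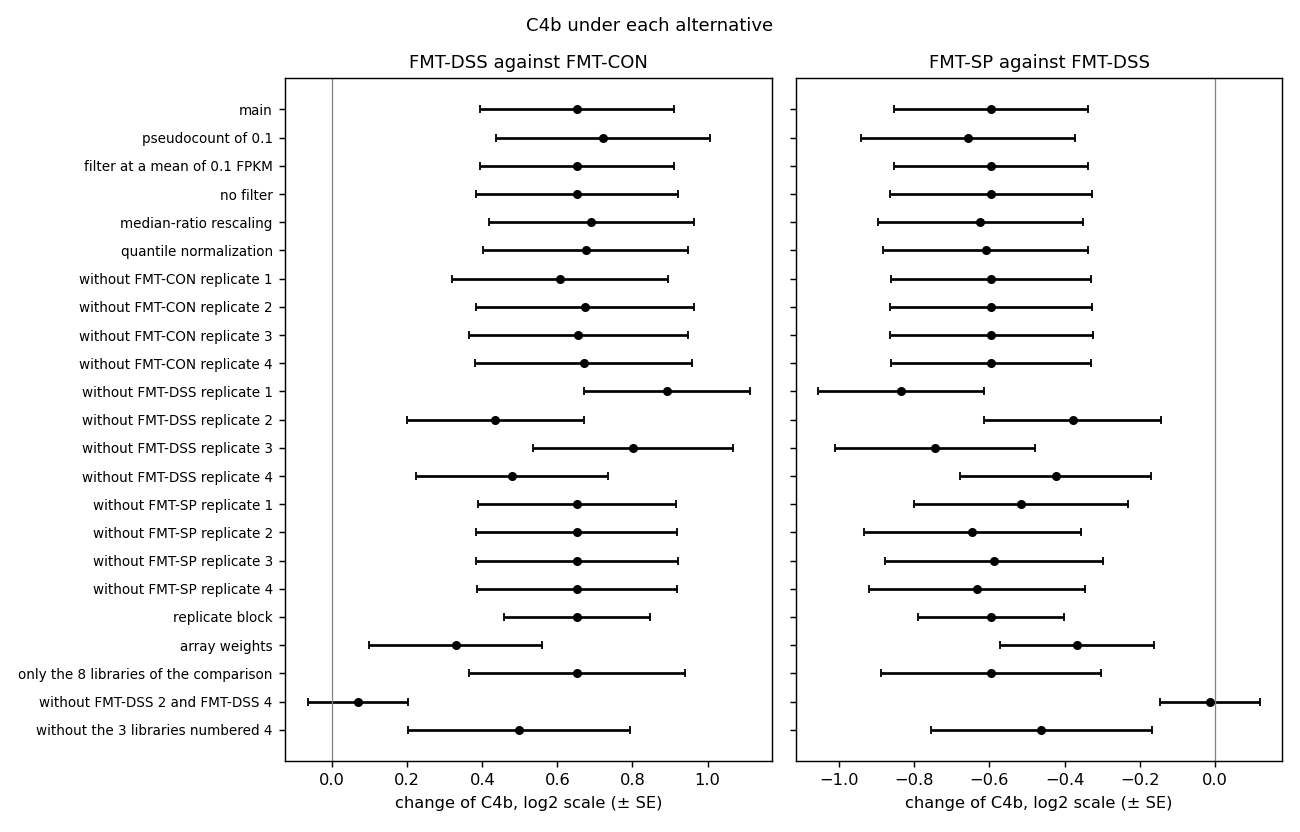
Log2 change of C4b (x axis, with its SE) in the 2 comparisons that hold the FMT-DSS libraries (panels), under the model as reported and each of 22 alternatives (rows). The change is near 0 in both comparisons (0.068 and -0.012) where FMT-DSS 2 and FMT-DSS 4 are left out together, and larger in size where FMT-DSS 1 is left out (0.89 and -0.84).

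FMT-SP against FMT-CON compares the groups that hold neither FMT-DSS 2 nor FMT-DSS 4, and the levels lay close together. C4b was at 5.74 ± 0.796 FPKM in FMT-SP and 5.46 ± 0.397 FPKM in FMT-CON (SD, n = 4 each), a log2 change of 0.056 ± 0.26 (95% interval -0.50 to 0.62). C1qa was at 33.3 ± 7.60 FPKM in FMT-SP and 35.2 ± 5.94 FPKM in FMT-CON, a change of -0.089 ± 0.21. C1qb had a change of -0.023 ± 0.21 and C1qc one of 0.024 ± 0.14. Serping1 was at 3.10 ± 0.593 FPKM in FMT-SP and 3.75 ± 0.588 FPKM in FMT-CON, a change of -0.22 ± 0.25 (-0.76 to 0.33), and had a lower mean in FMT-SP. C5ar1 was at 0.268 ± 0.0606 FPKM in FMT-SP and 0.333 ± 0.0351 FPKM in FMT-CON, a change of -0.073 ± 0.14 with an exact permutation p of 0.114, the smallest of the 9 genes here. C3, C3ar1 and Itgam had changes of -0.065 ± 0.23, 0.00064 ± 0.086 and 0.048 ± 0.26, and that of C3 was -0.30 ± 0.58 with a pseudocount of 0.1. Limma called 0 of 12559 genes (0%), with 45 at an unadjusted p under 0.05 (0.358%, of which 0.0637% had a positive and 0.295% a negative change), among them none of the 6 tested here. C3, C3ar1 and C5ar1 had none either, where 0.687% of the genes averaging at least 0.1 FPKM had one. All 9 genes overlapped between the groups, and 0.494% of genes tested did not (0.756% at the minimum of 0.1 FPKM). The spread behind these intervals is pooled over all 12 libraries, FMT-DSS 2 and FMT-DSS 4 included, so a gene has the same SE in all 3 comparisons. With that pooled spread the interval of C1qa ran from -0.54 to 0.36 on the log2 scale. It does not show the spread of the FMT-SP and FMT-CON libraries alone.

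The other genes of the pathway were looked up from a list of 43, of which 41 are in the table and 15 had a mean of at least 1 FPKM. None of the 15 passed limma's test in any of the 3 comparisons, and none had an unadjusted p under 0.05. In FMT-DSS against FMT-CON 9 of the 15 had a positive and 6 a negative change (median 0.026). In FMT-SP against FMT-DSS there were 8 and 7 (median 0.0059), and in the remaining comparison 9 and 6 (median 0.019). After leaving out FMT-DSS 2 and FMT-DSS 4, the first of these counts was again 9 and 6 (median 0.048) and the second 7 and 8 (median -0.031). With a minimum of 0.1 FPKM, 28 were tested and none passed. C1s1 alone had an unadjusted p under 0.05, in FMT-SP against FMT-DSS (0.00477 by limma, adjusted p of 0.999, change of -0.36 ± 0.10). In that comparison 3.09% of all genes at this minimum had one. Without both libraries the change of C1s1 was -0.19 ± 0.10, and none of the 28 had an unadjusted p under 0.05 in either comparison that uses FMT-DSS. Clu, or clusterin, a chaperone that also restrains the terminal steps, was the most abundant at 340 to 508 FPKM.

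Among the 15 genes averaging at least 1 FPKM, those of smallest p in each comparison were the following. Vtn, or vitronectin, an inhibitor of membrane attack that pericytes make in the brain, was at 30.7 ± 7.06 FPKM in FMT-DSS and 37.5 ± 4.78 FPKM in FMT-CON, a change of -0.30 ± 0.16, and had one of 0.23 ± 0.16 in FMT-SP against FMT-DSS. Leaving out FMT-DSS 2 and FMT-DSS 4, these were -0.39 and 0.32. Cd59a, which blocks the membrane attack complex, had a change of -0.48 ± 0.31 in FMT-DSS against FMT-CON (-0.26 without both libraries) and of -0.44 ± 0.31 in FMT-SP against FMT-CON. Its FMT-CON 1 value of 17.5 FPKM stood beside 6.20 to 8.04 FPKM in the other 3 FMT-CON libraries. Csmd1, a membrane protein of neurons that restrains complement, had a change of 0.18 ± 0.15 in FMT-DSS against FMT-CON (0.21 without both). Its relative Csmd2 had one of 0.29 ± 0.16 in FMT-SP against FMT-DSS (0.034 without both). C1qbp, a mainly mitochondrial protein first found as a binder of C1q, had changes of -0.26 ± 0.13 in FMT-SP against FMT-DSS (-0.13 without both) and -0.20 ± 0.13 in FMT-SP against FMT-CON. Cd46, a cofactor for breakdown of C3b and C4b proteins, had a change of 0.14 ± 0.12 in FMT-SP against FMT-CON.

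Some lower genes of the list were also high in FMT-DSS 2, and are named here after their values were seen. Cfb, or factor B of the alternative pathway, was at 1.82 FPKM in FMT-DSS 2 and between 0.0395 and 0.251 FPKM in the others. C1s1, a protease that C1q carries, had 0.319 to 0.409 FPKM in FMT-SP, 0.379, 1.04, 0.758 and 0.896 FPKM in FMT-DSS 1 to 4 and 0.458 to 0.582 FPKM in FMT-CON. Libraries 2, 3 and 4 of FMT-DSS lay above all 8 libraries of the other groups. C1s1 did not overlap between FMT-SP and FMT-CON, where 0.756% of the genes averaging at least 0.1 FPKM did not. Its change there was -0.14 ± 0.10, with an unadjusted p of 0.197 and an adjusted p of 0.9999 by limma. The exact permutation p was 0.0286, the smallest that test can give, for a gene picked after its values were seen. C1ra, its partner protease, had 1.31 FPKM in FMT-DSS 2, 0.713 FPKM in FMT-DSS 4 and 0.239 to 0.677 FPKM in the other 10. C1s1 and C1ra have the close copies C1s2 and C1rb, with which reads may be shared.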

How the data were processed

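RNA-seq of total RNA from hippocampal tissue was deposited as 1 table of FPKM values, computed by the authors, for 27978 genes and 12 libraries. Per the submitters' processing notes, HISAT2 2.0 and the build mm8 were used, without their roles, and the counter and annotation are not named. Groups and replicate numbers came from sample titles, and 0 pairs of libraries were identical. Depth was estimated from the steps of low FPKM values in 4713 genes with 1 transcript in GENCODE vM21, where 34.4% to 37.2% of values lay within 0.05 of a whole fragment against 10% by chance. Member fragments assume the longest coding transcript there.

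Values were tested as log2(FPKM + 1) with limma 3.58.1 in R 4.3.3, all 12 libraries in 1 fit with a mean-variance trend, Benjamini-Hochberg adjustment over all tested genes and a threshold of 0.05. The model was run on simulated data with independent values and no outlying libraries. That run cannot show how the model handles libraries such as FMT-DSS 2 and FMT-DSS 4. Exact permutation tests were two-sided over 70 assignments of 8 libraries, with a smallest p of 0.0286. The 9 genes were given by name, and the other complement genes (the 3 of smallest p per comparison are named), the 5 genes most like C1qa and C3, and the markers came from rules and lists, and 1 gene of the list of other complement genes is not reported here. Members, lists and alternatives were chosen with earlier results of these data known, and motifs after the promoters were seen. Promoters came from RefSeq (GRCm38.p6), matched by symbol for 6 of the 9 genes. Deviations of same-numbered libraries correlated at 0.356, 0.354, 0.108 and 0.694 between FMT-SP and FMT-DSS. They correlated at 0.00748 to 0.723 between FMT-DSS and FMT-CON and at -0.451 to 0.841 between FMT-SP and FMT-CON. These values do not establish pairs, and the labels give none. In these deviations FMT-DSS 1 was most like a library numbered 2, and FMT-SP 3 most like one numbered 1. The main model and the permutation tests were unpaired. The fits of other complement genes and of lists without FMT-DSS 2 and FMT-DSS 4 were added after seeing the data. Alternatives were a pseudocount of 0.1, other filters, rescalings, array weights, a replicate block and left-out libraries.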

Additional observations from a re-analysis of the deposited data

Results flagged for a closer look

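Within groups of 4 libraries, 72 groups of 24 complement genes were searched for a library far from its 3 companions, which chance gives in about 1 of 20 groups. C3 in FMT-DSS 2, at 1.71 FPKM, lay far from 0.0892 to 0.311 FPKM in the other FMT-DSS libraries. Itgam in FMT-DSS 4, at 0.532 FPKM, lay far from 2.73 to 2.85 FPKM. Itgb2 in FMT-DSS 2 was at 6.06 FPKM, with 1.37 to 1.67 FPKM in the other FMT-DSS libraries. In FMT-CON 1, Cd59a at 17.5 FPKM, Itgb2 at 1.89 FPKM and Csmd1 at 2.89 FPKM lay apart from 6.20 to 8.04, 1.51 to 1.54 and 4.07 to 4.29 FPKM. In total 6 groups were marked, 2 of them among the 27 groups of the 9 genes described.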

How the results depend on the processing

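None of the 27 changes of the 9 genes had an adjusted p under 0.05 under any of 22 alternatives, and limma called 0 genes under each of them. With array weights, limma's counts of genes with an unadjusted p under 0.05 were 432 in FMT-DSS against FMT-CON, 329 in FMT-SP against FMT-DSS and 1146 in FMT-SP against FMT-CON. With the replicate block, these counts were 1274, 885 and 310. Both stand in place of 510, 314 and 45, and no call changed. In that blocked fit C4b had a change of -0.60 ± 0.20 with an adjusted p of 0.672. The signs of small changes turned in 47 of the recomputed values. In the fits without 1 library each, FMT-DSS against FMT-CON ran from -0.058 to 0.25 for C1qa, -0.099 to 0.26 for C1qb, -0.044 to 0.39 for C3, -0.36 to 0.12 for Serping1, -0.055 to 0.024 for C3ar1, -0.0092 to 0.25 for C5ar1 and -0.33 to 0.11 for Itgam. FMT-SP against FMT-DSS ran from -0.28 to 0.076 for C1qb, -0.34 to 0.14 for Serping1, -0.028 to 0.084 for C3ar1 and -0.066 to 0.38 for Itgam. FMT-SP against FMT-CON ran from -0.14 to 0.063 for C1qb, -0.079 to 0.10 for C1qc, -0.047 to 0.065 for C3ar1 and -0.040 to 0.12 for Itgam. Without FMT-DSS 2 and FMT-DSS 4, FMT-DSS against FMT-CON turned to -0.12 for C1qa, -0.15 for C1qb, -0.025 for C3, -0.20 for C5ar1 and 0.11 for Itgam, and FMT-SP against FMT-DSS to 0.034 for C1qa, 0.13 for C1qb, 0.27 for Serping1, 0.13 for C5ar1 and -0.061 for Itgam. With array weights, FMT-DSS against FMT-CON turned to -0.023 for C1qa, -0.078 for C1qb and -0.036 for C5ar1, and FMT-SP against FMT-CON to -0.14 for C1qc, -0.038 for C4b and -0.011 for C3ar1. Without the 3 libraries numbered 4, Itgam turned to 0.034 in FMT-DSS against FMT-CON and to -0.0097 in FMT-SP against FMT-DSS, and C1qc to -0.12 in FMT-SP against FMT-CON. In FMT-SP against FMT-CON, C3ar1 turned to -0.028 with the pseudocount of 0.1 and C1qb to 0.0013 with quantile normalization. The cause was not tested. Depth limits C3, C3ar1 and C5ar1, whose lowest libraries rest on an estimated 16, 30 and 9 fragments.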
